A study of Drosophila melanogaster with 3 samples.

Results

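The 10 genes described here are eya, cas, zfh1, bab1, bab2, ct, mirr, slbo, br and peb. They encode transcription factors and 1 transcriptional coactivator, grouped here under follicle cell patterning in the Drosophila melanogaster ovary. They were chosen by name, and each was read from the probe sets that the platform's annotation assigns to that gene alone; where a gene had several, the probe set with the highest mean was used. All 10 had such a probe set, out of 11982 genes named on the array in all. Expression was measured in OSS cells, a stable line of the ovarian soma that the labels trace to follicular stem cells, on 3 Affymetrix arrays of 1 group. The cells were unmanipulated as far as the labels say, growing exponentially in M3 medium with 10% fetal bovine serum, 5% fly extract, insulin and glutathione. Whether the 3 samples were separate cultures, or the line 1 clone, is not stated in the labels. SDs and p-values therefore cover the differences among these 3 samples alone, and those may be technical. With no second condition, the question the design allows is which of these genes gave signal over that of genes taken as unused in these cells.

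Follicle cells form the epithelium around each germline cyst. Their stem cells lie in the germarium, and their daughters become polar cells, stalk cells or main-body cells. Main-body cells divide mitotically until Notch signalling from the germline moves them into endocycles. Later, EGFR, BMP, JAK-STAT and ecdysone signals divide the epithelium into border cells, stretched cells and the dorsal groups that shape the eggshell. Most of the 10 factors stand at these steps. The genes cas and eya act at or near the early lineage, and ct and peb on either side of the mitotic-to-endocycle switch. The gene slbo acts in border cells, and mirr and br in the dorsal and columnar epithelium. Roles of zfh1 and the bab pair are given below for the testis soma and the terminal filaments.

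The deposited values are log2 levels per probe set. Each gene's 3 values were tested against a background level of 2.49, the 95th percentile of the means of 112 odorant and gustatory receptor genes (limma, one-sided each way, adjusted p under 0.05 over all genes). A gene that passed neither way is given as unresolved. The lowest value of the table, 2.39, is shared by all arrays and lies only 0.098 log2 units under that level, so a call below background means little more than a value at or near this lowest one. Probe sets differ in affinity, so the values do not rank the 10 genes by transcript amount. In bulk RNA, fewer cells with a transcript and less transcript per cell cannot be told apart.

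Of the 10 genes, zfh1, bab1, bab2, br and mirr were above background, cas, ct, slbo and peb were below it, and eya was unresolved. That is 5 of 10 above, beside 47.0% of 11870 named genes outside the receptors, a share near the background; 49.6% of those genes were below and 3.34% unresolved. Of the receptors themselves, 5 of 112 (4.46%) passed as above, a share largely set in advance because their own means gave the level. The median over the 10 was 2.56 log2 and the median over all those genes 2.47. At a stricter level 1 log2 unit higher, zfh1 alone was above, beside 25.5% of all genes. Leaving out replicate 1 left 2 of the 10 above, zfh1 and bab2, beside 43.9% of all genes. Leaving out replicate 2 left 4, beside 46.4%, and leaving out replicate 3 left 5, eya then among them in place of bab1, beside 46.7%.

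**Figure D1:**
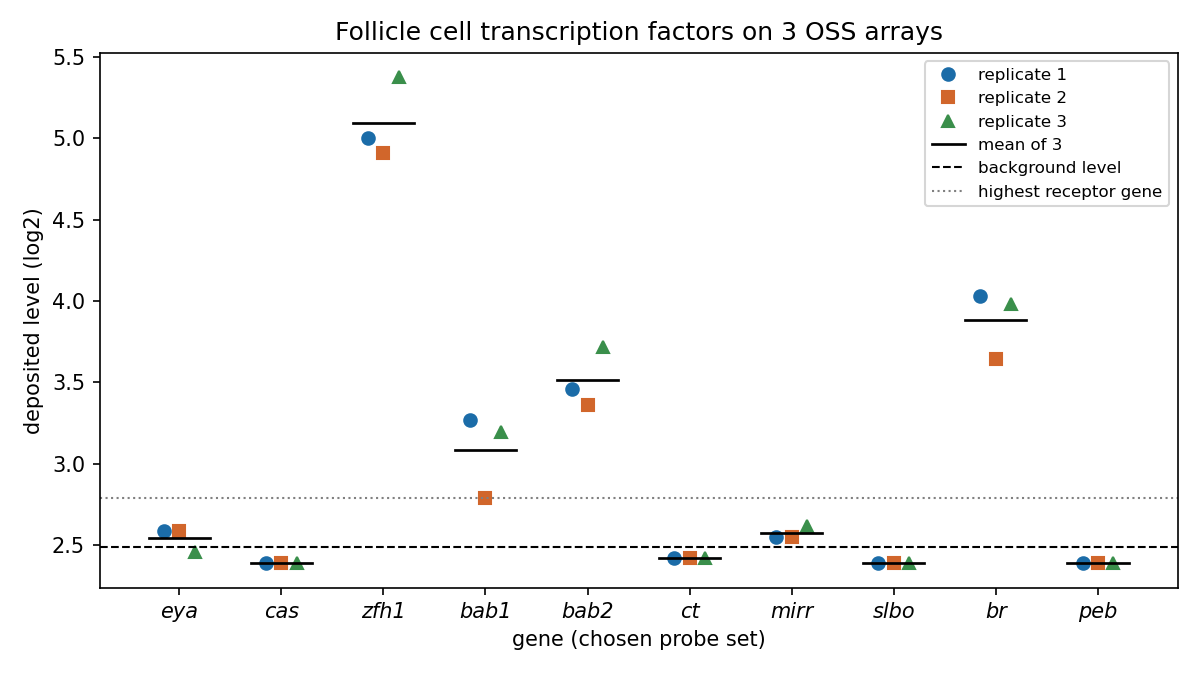
Deposited log2 level (vertical axis) of each of the 10 genes on each of the 3 OSS arrays (points) with the mean (short bar); the dashed line is the background level of 2.49 and the dotted line the highest receptor gene at 2.79. The points of zfh1, bab1, bab2 and br lie over both lines on every array, mirr and eya lie near the dashed line, and cas, ct, slbo and peb lie under it.

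The zinc-finger homeodomain gene zfh1, which in the fly testis maintains the somatic stem cells that are the counterpart of early follicle cells, gave the clearest signal over background. It measured 5.01, 4.91 and 5.38 log2 in replicates 1, 2 and 3. All 3 values lay over 4.9, more than 2 log2 units over the level, and replicate 3 was the highest. The mean of 5.10 ± 0.25 (SD, n = 3) was 2.61 log2 units over background (limma, adjusted p = 0.00085). This call was made under all 18 alternative settings tried, the only one of the 10 for which that held. Its relative zfh2 measured 2.39 on every array and was below background.

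Because zfh1 is also used in blood cells, muscle precursors and neurons of the fly, markers of those cells are given beside it. Of 6 hemocyte markers 3 were above background, Pxn at 4.43 ± 0.27, the scavenger receptor gene crq at 3.54 ± 0.062 and the GATA factor gene srp at 2.82 ± 0.079, while Hml and eater lay at 2.39 on every array and NimC1 at 2.39 (SD, n = 3). The hemocyte markers had means from 2.39 to 4.43. Of 4 measured muscle markers 1 was above, Mlc2 at 3.25 ± 0.055; Prm was unresolved at 3.10 ± 0.71 and Act88F lay at 2.39 on every array. Of 5 neuronal and glial markers 3 were above, moody at 4.32 ± 0.59, elav at 2.72 and repo at 2.50, with Appl at 2.39 on every array. The value of elav lay under the receptor gene Gr39a at 2.79, and repo lay only 0.0087 log2 units over the background level. Over all genes 47.0% were above. The part of these markers in the zfh1 signal was not tested.

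The cell label itself was checked against markers of ovarian cells. Of 6 measured somatic markers 5 were above background, among them the follicle and somatic gonad factor gene tj at 7.45, 6.96 and 6.09, fs(1)Yb at 4.55 ± 0.32 and Egfr at 4.22 on every array, and the one left was eya (SD, n = 3). Since zfh1 and eya are both in that list and among the 10 genes described here, the other 4, tj, dsx, fs(1)Yb and Egfr, are the part of this check that does not restate them, and all 4 were above. Fas3, the marker the labels name, was not analysed here. All 7 germline markers, vas, nanos, bam, osk, orb, zpg and AGO3, were below background, 6 of them at the lowest value on every array. Of 8 genes of differentiated follicle cells, 7 were below background, among them the eggshell genes Cp36 and Vm32E, and the yolk protein gene Yp3 was above at 3.01 ± 0.015. These counts stand beside 47.0% of all genes above background and 49.6% below. The marker lists were chosen with earlier results of these data known, which limits this check.

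The early lineage factors eya and cas gave little or no signal. The gene eya encodes a coactivator and phosphatase that in the ovary keeps early follicle cells from taking polar and stalk fates. It measured 2.59 in replicates 1 and 2, to every deposited digit the same, and 2.46 in replicate 3, which lay under the background level. The mean of 2.54 ± 0.075 (SD, n = 3) was 0.055 log2 units over it and unresolved (limma, adjusted p = 0.26), and 4 of the 112 receptor genes had means as high or higher. Without replicate 3 the gene was called above (limma, adjusted p = 0.0028), a call that rests on the identical pair. The zinc-finger gene cas, active in follicle stem cells and in polar and stalk cells, measured 2.39 on every array, the lowest value of the table.

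Most genes known to act with eya and cas in other tissues were at or near the lowest value. Of the 7 genes of the retinal determination network around eya, so alone was above background, and the list's median was 2.39. Over all genes, 47.0% were above and the median was 2.47. The homeodomain gene so, whose protein binds Eya directly, measured 3.00, 3.00 and 2.99. Its mean was 0.51 log2 units over background (limma, adjusted p = 9.7e-06), with identical values in replicates 1 and 2. The Pax genes toy, ey and eyg measured 2.40, 2.39 and 2.39, dac and Optix 2.39, and tsh 2.40 ± 0.021 (SD, n = 3). None of these 7 genes, so included, was above at the stricter level (0 by limma), beside 25.5% of all genes. Of the 6 factors that share the neuroblast temporal series with cas, 0 were above by limma at adjusted p under 0.05. The genes hb, Kr, grh and svp lay at the lowest value on every array, pdm2 measured 2.39 and nub 2.44. Under the levels set by odorant receptors, by bacterial controls or by the 90th percentile, 1 of the 6 was above. Of 11870 named genes, 6205, 6300 and 6234 were above under these levels in turn.

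The paralogs bab1 and bab2 encode BTB-domain factors that are needed for the terminal filaments of the ovary and for patterning of the leg. They are neighbours on the RefSeq assembly, with 0 protein-coding genes between them. bab1 measured 3.27, 2.79 and 3.19 log2. Replicate 2 lay about 0.40 or more under the others and was level, at 2 decimals, with the highest receptor gene. The mean of 3.08 ± 0.26 (SD, n = 3) was 0.60 log2 units over background (limma, adjusted p = 0.028). Without replicate 1 or without replicate 3 the call was lost (limma, adjusted p = 0.11 and 0.10). With the 99th percentile or the highest receptor gene as level it was lost as well (limma, adjusted p = 0.052 and 0.16).

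bab2 measured 3.46, 3.36 and 3.72 log2. All 3 values were over the highest receptor gene by more than 0.5. Its mean of 3.51 ± 0.18 (SD, n = 3) was 1.03 log2 units over background (limma, adjusted p = 0.0037), and it was above under 17 of the 18 alternatives, with the stricter level as the exception. The values of the 2 paralogs come from different probe sets and were not compared in size.

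The gene br encodes zinc-finger proteins with a BTB domain, several isoforms from 1 gene, that respond to ecdysone and mark the cells forming the roof of the dorsal appendages. It had 5 single-gene probe sets, and they differed widely. The chosen probe set measured 4.03, 3.65 and 3.98, a mean of 3.89 ± 0.21 (SD, n = 3) and 1.40 log2 units over background (limma, adjusted p = 0.0024). The next measured 3.32, 3.26 and 4.47, replicate 3 standing more than 1 log2 unit over both others, and was unresolved at 3.69 ± 0.68 (limma over probe sets, adjusted p = 0.057). A further probe set measured 2.91, 2.80 and 2.80 and was above background (2.84 ± 0.066, limma over probe sets, adjusted p = 0.0042). Both others lay at 2.39 on every array.

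Thus br had 2 probe sets above background, 1 unresolved and 2 below, against 42.9% of single-gene probe sets above and 53.6% below over the whole array. The isoforms behind each probe set are not named in the annotation used. Genes with more probe sets to choose from were above background more often, 46.6% of those with 1, 50.7% of those with 2 and 53.9% of those with 3 or more. Without replicate 1 the chosen probe set of br did not pass (limma, adjusted p = 0.12), although its mean then still lay 1.38 log2 units over the level. With the lowest probe set of each gene, br was below background.

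**Figure D2:**
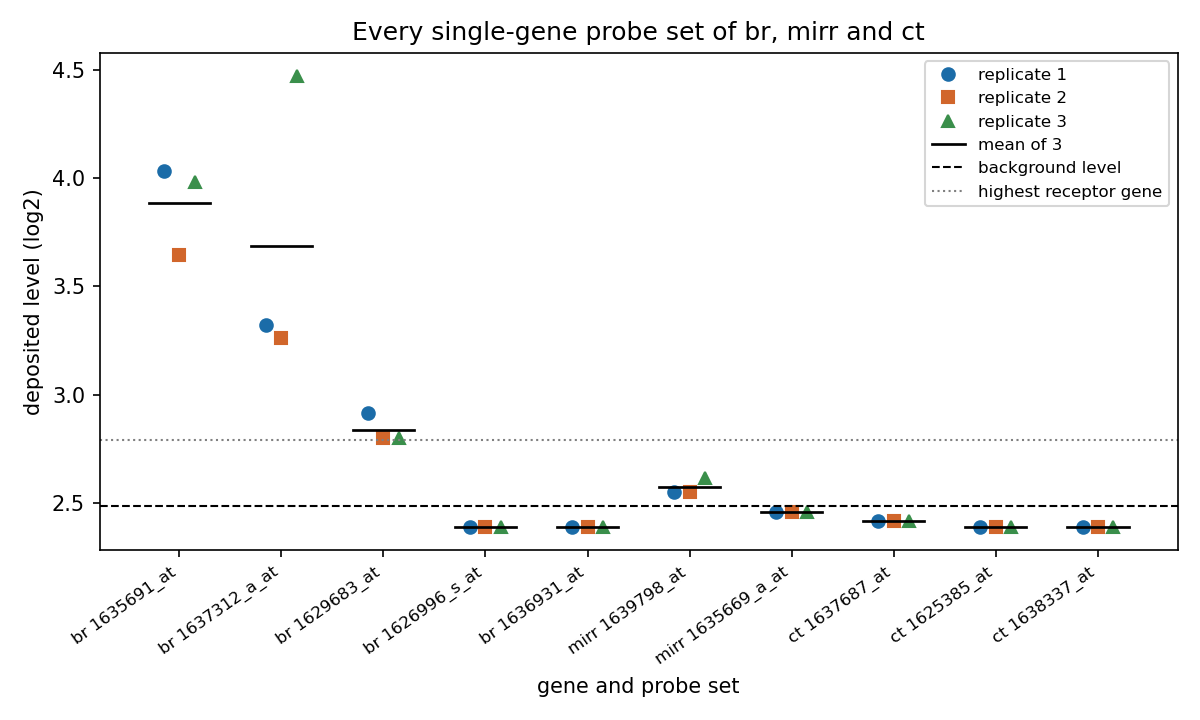
Deposited log2 level (vertical axis) of every single-gene probe set of br, mirr and ct on each of the 3 OSS arrays (points) with the mean (short bar); dashed line, background level of 2.49; dotted line, highest receptor gene at 2.79. The 5 probe sets of br spread from 2.39 to a mean of 3.89, and the 2 of mirr fall on either side of the background level.

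The BTB domain of br and the bab pair is shared by a larger family. Of 10 other measured BTB factor genes, 8 were above background, 1 was below and 1 was unresolved, with a median of 3.61 log2, beside 47.0% and 2.47 over all genes. The chromatin boundary gene mod(mdg4) measured 5.25 on every array at 2 decimals, lola 5.10 ± 0.21, and the insulator protein gene Cp190 3.96, 3.28 and 5.78, which left it unresolved (SD, n = 3; limma, adjusted p = 0.082). The lowest were psq at 2.99, rib at 2.53 and lov at 2.40 ± 0.0076, the last below background. With the lowest probe set of each gene 4 of the 10 were above, beside 5435 of 11870 named genes. At the stricter level 5 were above, beside 25.5% of all genes.

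Among the genes around br, BMP signalling and ecdysone response differed in their counts, a difference that was not tested. Of 7 BMP pathway genes, 6 were above background with a median of 4.45, beside 47.0% and 2.47 over all genes. The type II receptor gene put measured 6.25 ± 0.22, the type I receptor gene sax 5.67 ± 0.22 and the transducer gene Mad 5.28 ± 0.17 (SD, n = 3). The 3 lowest were shn, a cofactor of Mad, at 3.81 ± 0.055, Med at 2.91 and the ligand gene dpp at 2.39 on every array. Of 8 ecdysone genes, 4 were above, 3 below and 1 unresolved, with a median of 2.68. That count is near the 47.0% over all genes. The receptor partner gene usp measured 5.15 ± 0.057, the nuclear receptor genes Hr39 4.67 ± 0.33 and ftz-f1 3.22 ± 0.14, and Eip78C, Hr3 and Hr4 2.39. The ecdysone receptor gene EcR, named after its values were seen because it was the unresolved one, measured 2.79 in replicate 1 and 2.51 in both others (limma, adjusted p = 0.26).

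The Iroquois homeodomain gene mirr marks dorsal anterior follicle cells, where it represses pip. Its chosen probe set measured 2.55 in replicates 1 and 2, whose values were identical, and 2.62 in replicate 3. The mean was 2.57 ± 0.038 (SD, n = 3). All 3 values lay over the background level, by 0.088 log2 units on average (limma, adjusted p = 0.028), but 3 receptor genes had means as high or higher, Gr39a, Gr61a and Or65b. The other probe set of mirr measured 2.46 on every array and was below background. The call of the chosen one was lost without replicate 1 (adjusted p = 0.081), without replicate 2 (0.054), with gustatory receptors alone as background, a level of 2.51 (0.057), and with 1 spread pooled over genes (0.64, all by limma). It was also lost with the 99th percentile as level, and with the highest receptor gene mirr was below. The call was kept without replicate 3 (limma, adjusted p = 0.0053), where it rests on the identical pair. The other Iroquois genes ara and caup, its neighbours on the RefSeq assembly, both lay at 2.39 on every array.

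Of 9 genes of EGFR signalling and dorsoventral patterning, the pathway that sets mirr in the egg chamber, 8 were above background. Their median was 4.77, and over all genes 47.0% were above with a median of 2.47. The ligand gene spi measured 6.67 ± 0.30, the ubiquitin ligase gene Cbl 6.50 ± 0.22 and the adaptor gene drk 5.98 ± 0.29 (SD, n = 3). The gene pip, which encodes the sulfotransferase that mirr represses, measured 2.91, 3.06 and 3.05 and was above background (0.52 log2 units over it; limma, adjusted p = 0.0027). The feedback inhibitor gene aos measured 2.79 and the repressor gene cic 2.43 on every array, the latter below background.

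The pair around the mitotic-to-endocycle switch, ct and peb, gave no signal over background. The homeodomain gene ct, which is on in mitotic follicle cells, had 3 probe sets, with values of 2.42, 2.39 and 2.39, each the same on all arrays. The zinc-finger gene peb, also called hindsight, is turned on by Notch at the switch and represses ct. It measured 2.39 on every array. All 4 probe sets were below background.

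All 7 measured genes that act around this switch were above background with a median of 4.45, beside 47.0% and 2.47 over all genes. Of the 14 listed, 7 were not analysed here, among them N, Dl and Su(H). The Notch glycosyltransferase gene fng measured 7.49, 7.19 and 7.63, the gamma-secretase gene Psn 6.42 ± 0.10 and the mitotic cyclin gene CycB 5.98 ± 0.28 (SD, n = 3). The lowest were fzr, an activator of the anaphase-promoting complex in endocycles, at 3.50 ± 0.019, CycE at 2.86 ± 0.17 and neur at 2.57 ± 0.033. The receptor genes Gr39a, Gr61a and Or65b had higher means than neur. The count above background fell to 5 without replicate 1 or at the 99th percentile, beside 5215 and 5027 of 11870 named genes. It fell to 6 with 1 spread pooled over genes, beside 4716 of 11870. With the stricter level, 4 of these 7 passed, beside 25.5% of all genes.

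The gene slbo encodes the C/EBP factor needed for border cell migration and measured 2.39 on every array. Its dimerisation partner gene Irbp18 measured 4.92, 4.74 and 4.34, a mean of 4.66 ± 0.30 (SD, n = 3) and 2.18 log2 units over background (limma, adjusted p = 0.0020). The bZIP gene CG7786 measured 2.39, as did onecut, a relative of ct. Of the 6 family relatives listed, Irbp18 was the single one above background, beside 47.0% of all genes.

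Of 10 measured genes of the border cell programme around slbo, 6 were above and 4 below, with a median of 3.51. Over all genes 47.0% were above, a share not far from this count, and the median was 2.47. The JAK-STAT receptor gene dome measured 5.77, 5.74 and 5.74, Stat92E 5.23 ± 0.52 and ken, a repressor of STAT targets, 5.04 on every array (SD, n = 3). The lowest were jing at 2.40, the E-cadherin gene shg at 2.40 ± 0.0080 and the ligand gene upd1 at 2.39 on every array.

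Of 10 other regulators of the ovarian soma, 4 were above background, 5 below and 1 unresolved, with a median of 2.44. Both the count and the median are near those over all genes, 47.0% and 2.47. The sex determination gene dsx measured 7.63, 6.66 and 7.35, tj 6.83 ± 0.69 and the ligand gene hh, made by terminal filament and cap cells in the germarium, 4.05 ± 0.14 (SD, n = 3). The T-box gene mid, the GATA gene pnr, which acts in dorsal follicle cells, and the homeodomain gene inv lay at 2.39 on every array. The homeodomain gene en, the unresolved one and named after its values were seen, measured 2.48 on every array.

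**Figure D3:**
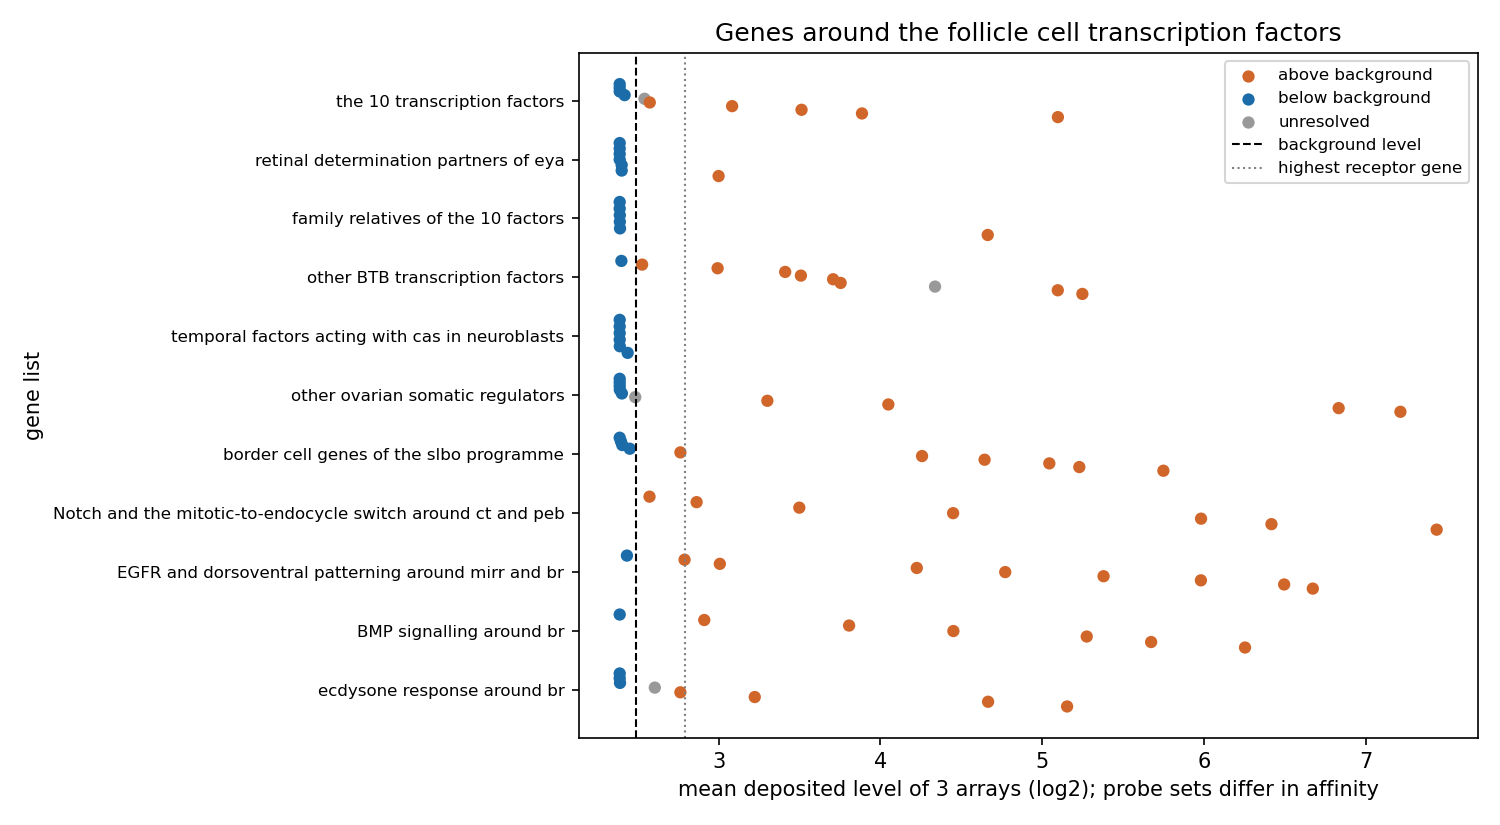
Mean deposited log2 level of 3 OSS arrays (horizontal axis) for each gene (point) of the 10 factors and of the lists around them (rows), coloured by call; dashed line, background level of 2.49; dotted line, highest receptor gene at 2.79. The 6 temporal factors lie at the left edge. Above background were 6 of 7 BMP genes, 8 of 9 EGFR genes and 8 of 10 BTB genes, beside 47.0% of all genes. Positions of different genes do not rank transcript amounts.

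The array-to-array differences of the genes above background had a shared side. Replicate 2 was alone the lowest array for zfh1, bab1, bab2 and br, 4 of the 5 genes above background. Over all 3957 such genes whose arrays vary this held for 43.2%, and the median level of all genes above background was 3.88 in replicate 2, under replicate 1 and under the 4.02 of replicate 3. The SDs of these 4 genes, 0.18 to 0.26, were over the median SD of 0.13. Each array was also centred on its median over the genes with a mean over the background level. Then zfh1, bab1, bab2 and br were still called above, with SDs of 0.19, 0.20, 0.13 and 0.15. Their adjusted p-values by limma ran from 2.1e-145 for zfh1 to 4.6e-09 for bab1. The centring gave cas, ct, slbo and peb the same SD of 0.067, and these p-values are not read as firmer calls. Under that centring mirr was unresolved (limma, adjusted p = 0.42), and so were cas, ct, slbo and peb (0.83 by limma), whose identical values the centring moved apart.

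The calls below background rest on values with no spread. The values of cas, ct, slbo and peb were identical on all 3 arrays, as were those of 67.2% of all probe sets, so an SD of 0 describes the deposited summaries and understates the error. With 1 spread pooled over the genes that vary, cas, ct, slbo and peb were unresolved (limma fit, adjusted p = 0.73). The gene ct was also unresolved with odorant receptors, bacterial controls or the 90th percentile as level, each of which lay within 0.01 log2 units of its value. These 4 genes therefore had no signal detectable over background on these arrays, which does not show that their transcripts were absent.

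**Figure D4:**
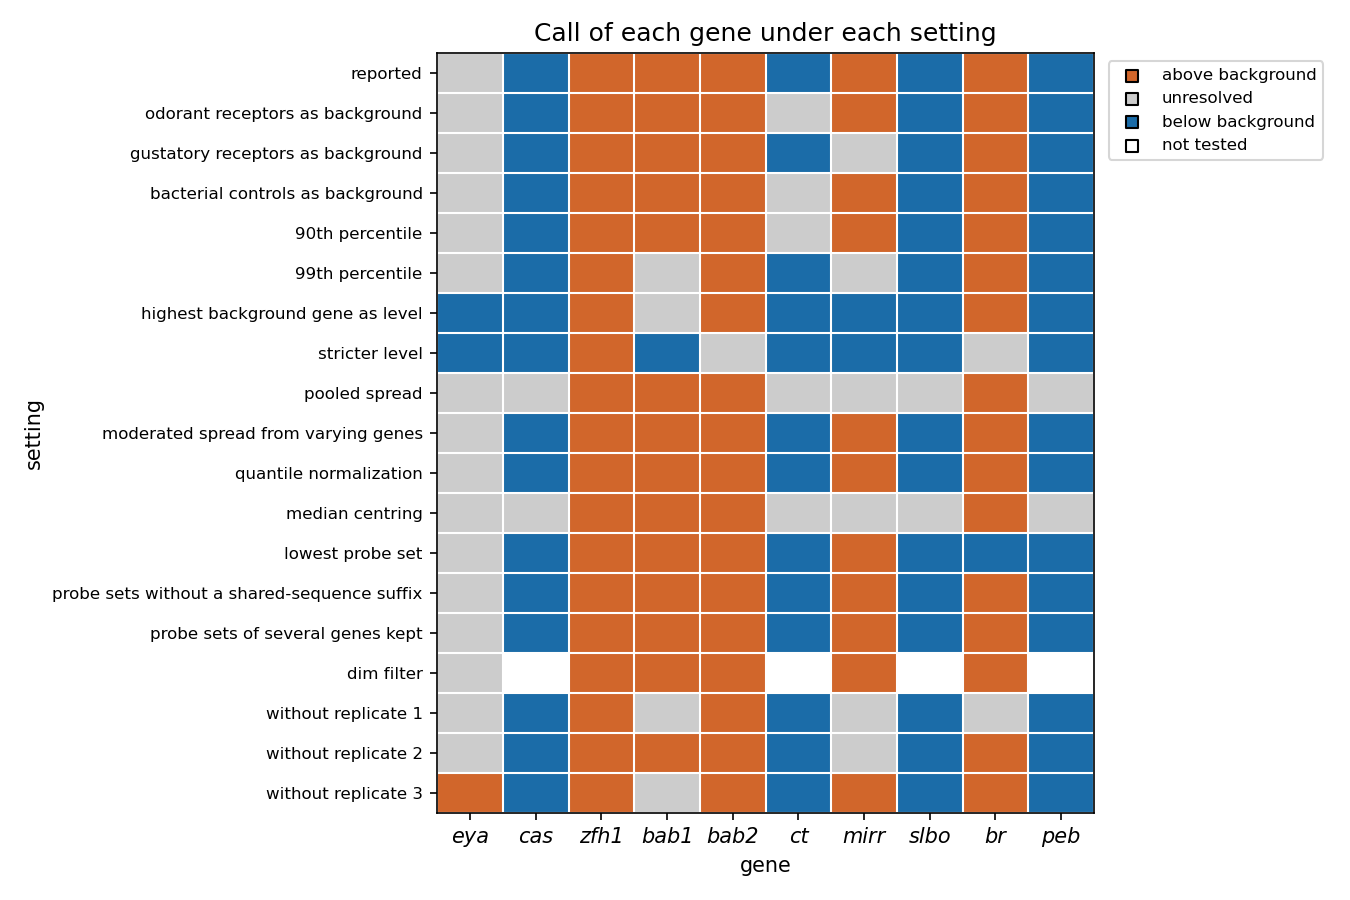
Call of each of the 10 genes (columns) under the reported setting and 18 alternatives (rows): orange, above background; blue, below; grey, unresolved; white, not tested. The column of zfh1 is orange throughout and that of bab2 in all but 1 row. Those of eya, mirr, bab1 and br change call with settings such as the level, the probe set or a left-out array. Those of cas, ct, slbo and peb are blue or grey, and white with the dim filter.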

How the data were processed

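Total RNA (10 ug per sample) was converted to biotin-labelled cRNA and hybridised to Affymetrix arrays, per the labels' protocols. The authors deposited log2 expression values per probe set. Base 2 was inferred from their range; per the labels, scanner files entered custom scripts, and the normalization, summary method and genome build are not given in the sources used here. Values for 18952 probe sets on each of 3 arrays were used as deposited. Pearson correlations between arrays were 0.995, 0.988 and 0.986. Precision is limited by the number of arrays.

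Gene names came from the platform annotation, and 13544 of 13647 single-gene probe sets matched the RefSeq table (Release 6 plus ISO1 MT) by identifier, with 0 symbols changed. Of several probe sets, that of the highest mean stood for the gene. An intercept-only fit of each gene's values minus the background level was made with limma 3.58.1 in R 4.3.3 (lmFit, eBayes, Benjamini-Hochberg over 11982 genes). An SD of 0 was found in 59.8% of named genes, for which variance moderation is unreliable, so alternatives took the spread from genes that vary. In simulated data on 11982 genes, 4% of 50 genes set at the level were called above, 74% of those 0.25 log2 units over it, 82% at 0.5, 94% at 1 and 98% at 2.

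The 10 genes, the lists and the tests were chosen with earlier results of these data known. Genes named were the 10 with every probe set, all genes of the eya, temporal factor and family lists, and the 3 highest and 3 lowest of each other list; markers came from the fixed marker list, and a gene outside these is said to be chosen after its values were seen. With 1 group there is no pattern across conditions by which to name genes of like expression. Genes without a single-gene probe set were not analysed here.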

Additional observations from a re-analysis of the deposited data

How the results depend on the processing

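No paired analysis was possible because the study has a single group. Each of the 18 alternatives was planned. Of 176 levels of the 10 genes under alternatives, 144 kept direction and call; with the filter on dim probe sets cas, ct, slbo and peb were not tested. The count of the 10 genes above background was 3 at the 99th percentile, beside 5027 of 11870 named genes. It was 3 with the highest receptor gene as level, beside 4440 of 11870, and 1 at the stricter level, beside 25.5%. With 1 array left out it was 2 to 5. Without replicate 1 it was 2, zfh1 and bab2, beside 43.9% of all genes. Genes above numbered 3028 at the stricter level and 5215 to 5545 with 1 array left out. The level of eya turned to -0.063 log2 units at the 99th percentile, -0.25 with the highest receptor gene and -0.94 at the stricter level, and that of mirr to -0.030, -0.21 and -0.91. The level of bab1 was -0.40 at the stricter level. That of ct was 0.0030 with bacterial controls, and that of br -0.058 with the lowest probe set. The level itself fell to 2.45 in that setting. There mirr, read from its other probe set with identical values on every array, was above by only 0.0099 log2 units. At the stricter level 0 partners of eya, 5 BTB, 4 Notch and 2 ecdysone genes were above, beside 25.5% of all genes. With the lowest probe set 4 of 10 BTB and 2 of 8 ecdysone genes were above, beside 5435 of 11870 named genes. Without probe sets of shared sequence fewer genes were measured. There 5 of 6 BTB, 4 of 4 Notch and 5 of 6 EGFR genes were above, beside 4820 of 10866 named genes. With odorant receptors, bacterial controls or the 90th percentile, 1 temporal factor was above, beside 6205, 6300 and 6234 of 11870 named genes. Other causes were not tested.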

Other observations

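Mixed calls between probe sets, as in br and mirr, were common on this array. Of 341 genes with 3 or more single-gene probe sets, 149 (43.7%) had at least 1 above and at least 1 below background, and of 1094 genes with 2 or more, 381 (34.8%) did.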
